A study of Coprinopsis cinerea with 10 samples.

Results

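The B mating-type locus of the ink cap mushroom Coprinopsis cinerea was followed through fruiting in 8 of its genes, of 13320 genes measured. They were taken by their identifiers, by a rule that uses no measured value but was written with earlier results of these data known: 5 genes annotated as mating-type pheromones (CC1G_15337, CC1G_02130, CC1G_02135, CC1G_15340 and CC1G_15341) and 3 annotated as pheromone receptors (CC1G_15338, CC1G_15339 and CC1G_02137). The annotation names CC1G_02135 as pheromone Phb2.1 B43, CC1G_15338 as receptor Rcb2 B43, CC1G_02137 as receptor Rcb3 B43 and CC1G_15339 as pheromone B beta 1 receptor. The other 4 pheromone genes are listed only as fungal mating-type pheromones. All 8 were measured, and each was above the floor described below in at least 1 stage.

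In mushrooms the B locus encodes small secreted lipopeptide pheromones, made from precursors that are farnesylated at the carboxyl end, and receptors of the Ste3 type, which span the membrane and act through G proteins. A pheromone from one mate is recognised by a receptor of a compatible mate and not by the receptor of its own sublocus allele. This recognition drives the migration of nuclei after mating and the fusion of clamp cells that keeps the nuclei of a dikaryon paired as hyphae grow. The A locus, which encodes homeodomain proteins, acts beside it.

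Total RNA labelled with Cy3 was hybridised to 10 one-colour NimbleGen arrays, 2 biological replicates for each of 5 stages. The strain was the same in every group: a dikaryon of 50% Okayama-7 origin, crossed back to that sequenced monokaryon over 5 generations and about 98.44% homologous to it. Vegetative mycelium grew at 37 °C on YMD agar, and 5 plates were pooled for a replicate. The other groups came from cultures moved to 25 °C with 12 h of light and 12 h of dark, and a replicate held 4 to 5 structures: fruiting initials near 2 mm, stage 2 primordia near 1 cm, young fruiting bodies near 2 cm, and caps alone, fully expanded, from mature fruiting bodies near 4 cm. Mycelium and the fruiting stages thus also differed in temperature and light, and mature cap differed from the earlier stages in both age and tissue, and these cannot be told apart. The gene models behind the probes carry Okayama-7 names, and whether the probes also bind B-locus transcripts of the other nucleus was not tested.

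Values are intensities on a linear scale or their log2, and n = 2 arrays per stage unless stated. Median intensity per array lay between 3268 and 3403 units, and the floor ranged from 89.4 to 117 units, which is 4 times the signal of probes of random sequence. Replicates correlated across genes at r between 0.997 and 0.999, and the largest SD between replicates of any of the 8 genes was 0.241 on the log2 scale. The 10 arrays shared 1 slide, on which they followed stage order, so that position and stage cannot be told apart. The stage markers moved as follows: galectin-1 (CC1G_05003), a fruiting body lectin, was 2.22 ± 0.0626 log2 units higher in initials than in mycelium, and Spo11 (CC1G_03320), which cuts DNA at meiosis, was under the floor in mycelium and at a log2 level of 9.92 in initials. Galectin-1 changed by -2.27 between mycelium and mature cap.

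Of the 8 genes, 7 were lowest in the mature cap, at 2.97% to 25.8% of their level in mycelium, and 1 pheromone gene, CC1G_15337, was highest there, at 2750% of it. The fall ran through fruiting: 6 of the 8 genes fell at each of the last 3 steps between neighbouring stages, as did 4.43% of all genes. With the replicate pairs of 3 stages averaged, as described below, this count was 1 (CC1G_15340). Every one of the 8 differed between stages in limma's F test (largest adjusted p = 1.5e-07), but so did 89.8% of all genes. The arrays measure bulk tissue, so fewer cells with a transcript and less transcript per cell cannot be told apart.

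**Figure D1:**
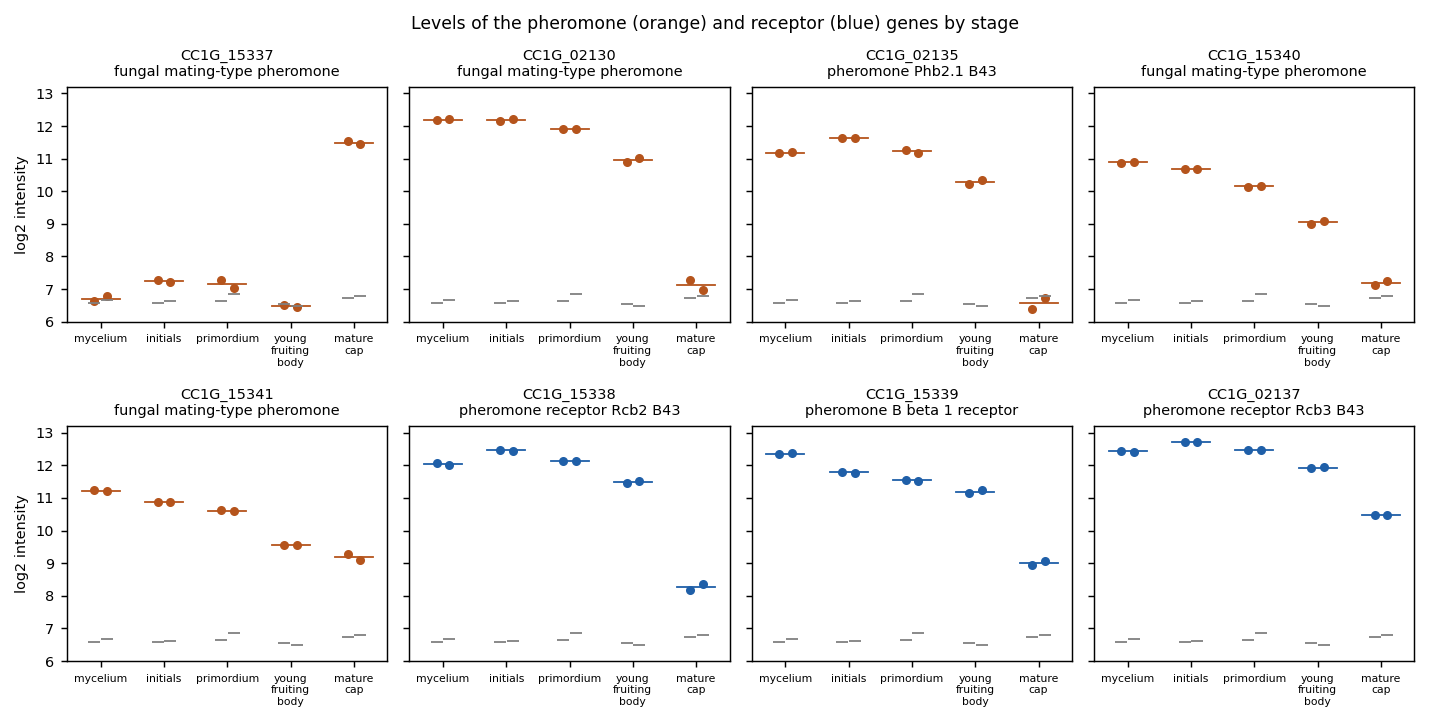
Log2 intensity (vertical axis) of the 5 pheromone genes (orange) and 3 receptor genes (blue) in 5 stages (horizontal axis). Points are arrays, coloured lines are stage means (n = 2) and grey dashes are the floor of each array; 7 genes are lowest in the mature cap, and CC1G_15337 lies near the floor in every stage but the mature cap.

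Among the pheromones, CC1G_15337 stood apart. Its intensity was 98.3 and 111 units in the 2 mycelium arrays, 155 and 149 in initials, 157 and 129.8 in primordia, 91.8 and 88.0 in young fruiting bodies, and 2949.9 and 2792 in mature caps. Both cap arrays lay far above the other 8 arrays, and both young fruiting body arrays were under the floor. In limma, with Benjamini-Hochberg adjustment over all genes, the mature cap was at least 31.3-fold higher than the young fruiting body (log2 change 5.00 ± 0.0978, SE, adjusted p = 2.56e-08). Against mycelium, itself barely above the floor, the cap was 27.5-fold higher (adjusted p = 1.73e-08). Increases of at least 4-fold were called in 4.09% of all genes against young fruiting body and in 6.24% against mycelium. Below the cap in the order of levels, initials and primordia could not be separated (difference 0.09 ± 0.0978, adjusted p = 0.496), nor could mycelium and young fruiting body (0.22 ± 0.0978, adjusted p = 0.0827, or 0.0273 without either primordium replicate). The gap between cap and initials, the next stage in that order, was 4.24 ± 0.0978 (adjusted p = 4.67e-08, with 78.5% of all genes called in this comparison).

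CC1G_02130 ran the other way and had a large drop. Its intensity was 4663 and 4731 units in mycelium, 4554 and 4734 in initials, 3838 and 3845 in primordia, 1921 and 2071 in young fruiting bodies, and 156 and 125 in mature caps. Mycelium and initials overlapped, each later stage lay wholly under the stage before it, and the cap values were only just above the floor. Mature cap was 14.3-fold lower than young fruiting body (log2 change -3.84 ± 0.0979, adjusted p = 7.54e-08) and 33.7-fold lower than mycelium (-5.07 ± 0.0979, adjusted p = 1.36e-08). The step from initials to primordium, -0.27 ± 0.0979, missed the threshold (adjusted p = 0.0576), and it passed in 7 of 21 other settings.

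The pheromone Phb2.1 (CC1G_02135) peaked in initials. It measured 2284 and 2329 units in mycelium, 3201 and 3157 in initials, 2482 and 2322 in primordia, 1203 and 1300.5 in young fruiting bodies, and 83.6 and 106 in mature caps. Initials were above every other array, primordium and mycelium overlapped (difference 0.06 ± 0.105, adjusted p = 0.645), and both cap arrays were under the floor. The cap was at least 11.5-fold lower than the young fruiting body (log2 change -3.73 ± 0.105, adjusted p = 1.14e-07) and at least 21.2-fold lower than mycelium. The rise into initials was 1.38-fold (adjusted p = 0.00618). The fall from initials to primordium, 1.32-fold with an adjusted p of 0.0187, lost its call without initials replicate 1 (0.0813), initials replicate 2 (0.0716) or primordium replicate 2 (0.0848).

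The last pair of pheromones, CC1G_15340 and CC1G_15341, are neighbours on the chromosome and were highest in mycelium. CC1G_15340 measured 1885 and 1906 units in mycelium, 1656 and 1640.0 in initials, 1128 and 1143 in primordia, 510.0 and 549 in young fruiting bodies, and 141 and 151 in mature caps. CC1G_15341 measured 2401 and 2380.1 units in mycelium, 1887 and 1866 in initials, 1586 and 1537 in primordia, 751 and 754 in young fruiting bodies, and 619 and 551 in mature caps. Both fell at all 4 steps, with no overlap between any neighbouring stages. They ran close together as far as the young fruiting body, at 27.9% and 31.5% of mycelium, and then parted. CC1G_15340 fell a further 3.63-fold into the cap (log2 change -1.86 ± 0.0465, adjusted p = 6.89e-08), while CC1G_15341 fell 1.29-fold (-0.37 ± 0.0532, adjusted p = 0.000535). The difference between these 2 falls was not itself tested. CC1G_15340 ended at 7.68% and CC1G_15341 at 24.4% of mycelium.

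Of the receptors, Rcb2 (CC1G_15338) had the largest fall into the cap. It measured 4292 and 4092 units in mycelium, 5724 and 5569 in initials, 4486 and 4483 in primordia, 2844 and 2937 in young fruiting bodies, and 287 and 329 in mature caps. As with Phb2.1, initials were the highest stage, and primordium and mycelium could not be separated (difference 0.10 ± 0.0642, adjusted p = 0.214), although this difference passed without either mature cap array (adjusted p = 0.0456). Rcb2 rose 1.35-fold into initials (adjusted p = 0.000774) and was 9.4-fold lower in mature cap than in young fruiting body (log2 change -3.23 ± 0.0642, adjusted p = 2.73e-08). It was 13.6-fold lower in mature cap than in mycelium.

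The pheromone B beta 1 receptor (CC1G_15339) had its peak in mycelium. It measured 5215 and 5295 units there, 3579 and 3516 in initials, 3010.2 and 2963 in primordia, 2253 and 2401 in young fruiting bodies, and 486 and 534 in mature caps. Each stage lay wholly below the one before. The first step, a 1.48-fold fall from mycelium to initials (log2 change -0.57 ± 0.0517, adjusted p = 5.75e-05), was in the opposite direction to that of both other receptors. The last step was a 4.56-fold fall (-2.19 ± 0.0517, adjusted p = 5.38e-08), which left the cap 10.3-fold under mycelium.

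Rcb3 (CC1G_02137) had the smallest loss among the receptors. It measured 5557 and 5469.9 units in mycelium, 6733 and 6741 in initials, 5626 and 5656 in primordia, 3859 and 3938 in young fruiting bodies, and 1424 and 1417 in mature caps. Initials were the highest stage, followed by primordium and mycelium, which could not be separated (difference 0.03 ± 0.0246, adjusted p = 0.268). The rise into initials was 1.22-fold (log2 change 0.29 ± 0.0246, adjusted p = 4.06e-05). Rcb3 then fell 2.74-fold from young fruiting body to mature cap (-1.46 ± 0.0246, adjusted p = 1.62e-08), where it was 3.88-fold lower than in mycelium.

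**Figure D2:**
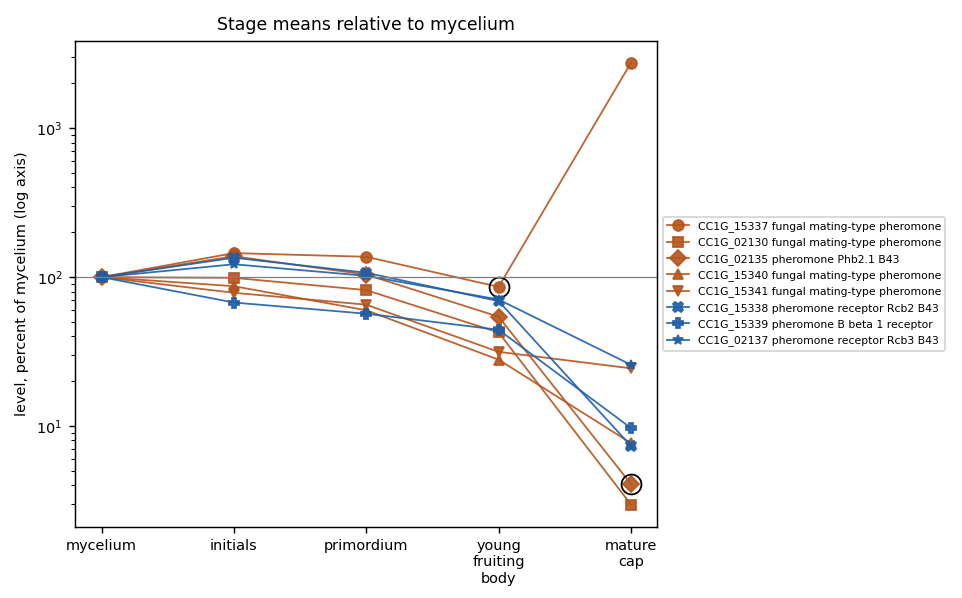
Stage means (n = 2 arrays) of the 5 pheromone genes (orange) and 3 receptor genes (blue) as a percentage of the level in mycelium, on a log axis, by stage. Black circles mark stages under the floor; CC1G_15337 ends at 2750% and the other 7 genes end between 2.97% and 25.8%.

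Set against each gene's own level in mycelium, the genes named for the same subfamily, Phb2.1 and Rcb2, stood at 138% and 135% in initials, 104% and 107% in primordia, and 54.2% and 69.0% in young fruiting bodies. In the cap Rcb2 was at 7.34%, and Phb2.1 was under the floor. Rcb3 had a like course up to the young fruiting body, at 122%, 102% and 70.7%, and kept 25.8% in the cap. The genes with their peak in mycelium were already lower in primordia: CC1G_15340 at 59.9%, CC1G_15341 at 65.3% and the pheromone B beta 1 receptor at 56.8%. These are descriptions, and the courses of different genes were not tested against each other.

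By step, initials against mycelium divided the 8 genes. CC1G_15337, Phb2.1, Rcb2 and Rcb3 rose, by 1.22-fold to 1.45-fold, where 37.5% of all genes rose. CC1G_15340, CC1G_15341 and the pheromone B beta 1 receptor fell, by 1.15-fold to 1.48-fold, where 33.7% of all genes fell. CC1G_02130 changed by -0.02 ± 0.0979 (adjusted p = 0.891). None of these changes reached 2-fold, and the counts of 4 and 3 are near the share of all genes in each direction. With the replicate pairs of mycelium, initials and young fruiting body each averaged to 1 sample, because their spread was close to that between blocks of probes of an array, 2 of the 8 genes passed here: Rcb3 up and the pheromone B beta 1 receptor down. In that fit each of the 3 stages is a single sample, assumed to vary like primordium and mature cap, which alone give the spread (2 residual degrees of freedom).

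From initials to primordium, 6 genes fell and none rose, while 24.5% of all genes fell and 23.5% rose. The falls were small, with a median log2 change of -0.27 over the 8 genes against 0.00 over all genes, and the largest was 1.45-fold, in CC1G_15340. With the same pairs averaged, that of CC1G_15340 was the 1 call that remained.

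From primordium to young fruiting body all 8 genes fell, where 24.8% of all genes fell. The median log2 change was -0.80 against -0.01 over all genes. CC1G_15340 fell 2.15-fold (log2 change -1.10 ± 0.0465, adjusted p = 1.66e-05) and CC1G_15341 fell 2.07-fold (-1.05 ± 0.0532, adjusted p = 2.76e-05), and 1.76% of all genes fell at least 2-fold at this step. The pheromones other than CC1G_15337 changed by -0.94 to -1.10, and the receptors by -0.36 to -0.63. CC1G_15337 was at least 1.56-fold lower (adjusted p = 0.00166). With the pairs averaged, CC1G_15337 (adjusted p = 0.0545) and the pheromone B beta 1 receptor (adjusted p = 0.061) lost their calls and the other 6 genes kept them. By this stage every gene but CC1G_15337 was lower than in mycelium, by 1.41-fold in Rcb3 to 3.58-fold in CC1G_15340, in a comparison that called 74.7% of all genes. At the primordium, in a comparison that called 72.5% of all genes, CC1G_02130 had been 1.22-fold lower than in mycelium (adjusted p = 0.0322), a call that was lost in 9 of 21 other settings, among them without either mycelium, initials or primordium replicate.

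The step into the mature cap held the largest change of each gene but CC1G_15341. Against young fruiting body 7 genes fell and 1 rose, where 40.7% of all genes fell and 38.3% rose. Of the 7, 6 fell at least 2-fold and 4 at least 4-fold (CC1G_02130, Phb2.1, Rcb2 and the pheromone B beta 1 receptor), where 13.7% and 4.62% of all genes did. The median log2 change was -2.03 over the 8 genes and 0.02 over all genes. Against mycelium 7 genes fell and 1 rose, where 40.0% fell and 40.7% rose among all genes. All 7 fell at least 2-fold and 6 at least 4-fold (all but Rcb3), where 16.1% and 7.38% of all genes did. The direction and the call of each of the 8 genes in both comparisons were kept in each of the 21 other settings.

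**Figure D3:**
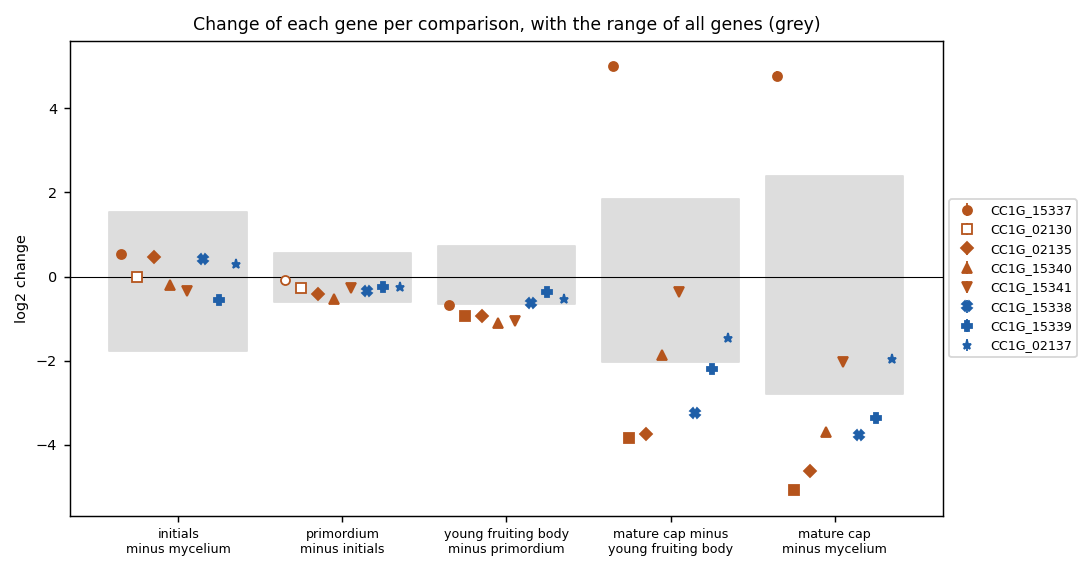
Log2 change (vertical axis) of the 5 pheromone genes (orange) and 3 receptor genes (blue) in 5 comparisons of stages (horizontal axis). Bars are the SE from limma, mostly smaller than the symbols, open symbols did not pass the test, and grey boxes span the 5th to 95th percentile of all 13320 genes; CC1G_15337 lies above the box and CC1G_02130, Phb2.1, Rcb2 and the pheromone B beta 1 receptor lie below it in both comparisons of the mature cap.

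In the gene order of the RefSeq annotation of assembly CC3, the 8 genes lie in 1 run of 12 genes on the array. CC1G_15337 is at one end. It is followed by a pheromone receptor, CC1G_02129, then by CC1G_02130, then by CC1G_02132 (pheromone Phb2.2 B44), CC1G_02133 (a fungal mating-type pheromone) and CC1G_02134 (pheromone Phb2.2 B43). The rest of the run is Phb2.1, Rcb2, the pheromone B beta 1 receptor, Rcb3, CC1G_15340 and CC1G_15341. CC1G_02129, CC1G_02132, CC1G_02133 and CC1G_02134 are not among the 8 genes.

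Neighbours in this run differed in course. CC1G_02129, between CC1G_15337 and CC1G_02130, measured 4669 and 4604 units in mycelium, 4653 and 4618 in initials, 3611 and 3513 in primordia, 2167 and 2319 in young fruiting bodies, and 4941 and 4902 in mature caps. It fell into the young fruiting body and was then 2.2-fold higher in the cap (log2 change 1.13 ± 0.0373, adjusted p = 2.25e-07), back near its level in mycelium (difference 0.09 ± 0.0373, adjusted p = 0.0691, which passed in 4 of 21 other settings). At that end of the run, CC1G_15337 and CC1G_02129 thus rose into the cap and the next gene, CC1G_02130, fell. CC1G_02132 rose 3.81-fold into initials (adjusted p = 2.57e-07) and by 0.62 ± 0.0585 into the cap (adjusted p = 4.94e-05). CC1G_02134, at 184 to 202 units in young fruiting bodies and 505 to 547 in caps, rose by 1.45 ± 0.223 (adjusted p = 0.000742). CC1G_02133 fell at each step and changed by -3.33 ± 0.0420 between mycelium and cap (adjusted p = 2.8e-09).

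Of the 4 genes of the run that are not among the 8, 3 rose and 1 fell into the cap, with a median log2 change of 0.88. Of the 5 genes on each side of the run, 5 rose and 4 fell, with a median of 0.13. Among all genes 38.3% rose and 40.7% fell. Products of close sequence can share probe signal, and this was not tested for the pheromone genes.

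**Figure D4:**
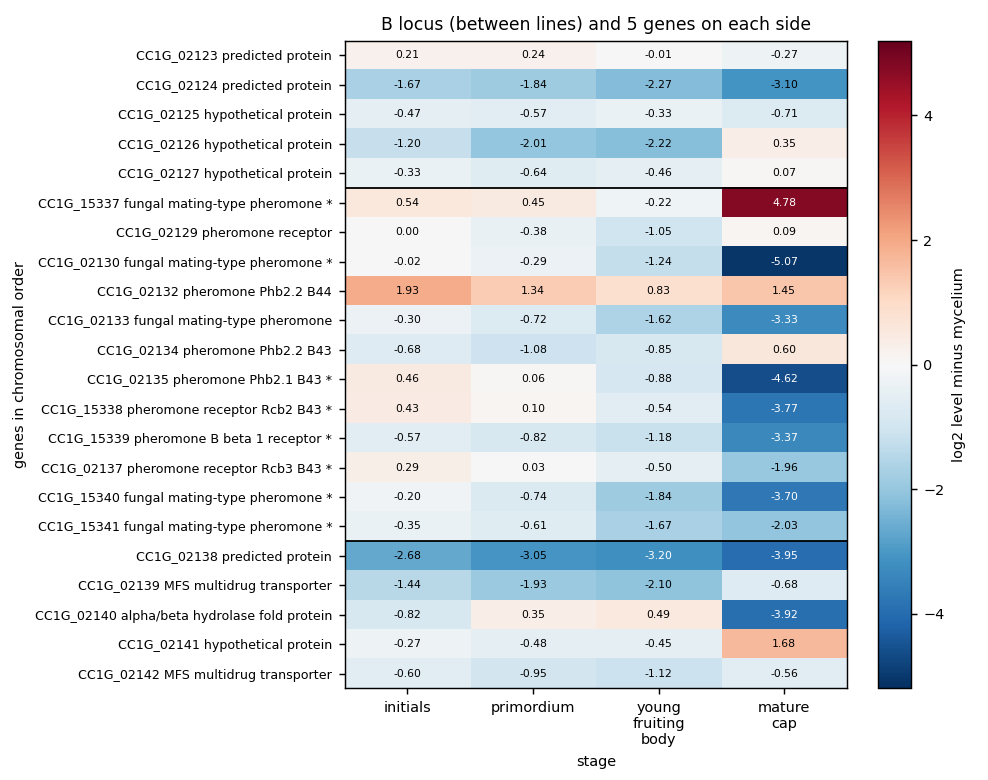
Log2 level minus that in mycelium (colour and printed value, stage means of n = 2 arrays) for the 12 genes of the run, between the lines, and 5 genes on each side, in chromosomal order (rows) by stage (columns). Asterisks mark the 8 genes; CC1G_15337 is the one asterisked row that is red in the mature cap.

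The genes whose log2 levels over the 10 arrays were most like each of the 8 were found by Pearson's r among 11844 genes above the floor in some stage, as a description. The arrays share stages and slide, and between 8 and 79 genes had r above 0.99 with a given one. The gene nearest to CC1G_15340 was another gene of the run, the pheromone CC1G_02133 (r = 0.9988). The gene nearest to Rcb3 was CC1G_01831, mating-type protein beta 1, which is in the A mating-type list below (r = 0.9989), at log2 levels of 12.46 in mycelium, 12.60 in initials and 11.30 in mature cap. Phb2.1 was nearest to a FunK1 protein kinase, CC1G_07019 (r = 0.9986), and next to a hypothetical protein, CC1G_00811 (r = 0.9983). CC1G_07019 was dim, at 109 to 193 units before the cap. In the cap it was at 21.1 and 20.9 units, under the random-sequence controls of these arrays (26.4 and 27.9). Phb2.1 was under the floor there too, and r was taken on values with no floor set. CC1G_00811 was also nearest to Rcb2 (r = 0.9998), followed by CC1G_01584 (r = 0.9995). Above r = 0.99 lay 63 genes for Phb2.1 and 77 for Rcb2, so a shared gene does not set these 2 apart. CC1G_15341 was nearest to a lysyl oxidase, CC1G_07936 (r = 0.9948), and CC1G_15337 to a hypothetical protein, CC1G_14641 (r = 0.9984), and an acyl-CoA dehydrogenase, CC1G_06408 (r = 0.9971). CC1G_02130 was nearest to CC1G_15505 (r = 0.9994) and the pheromone B beta 1 receptor to CC1G_11731 (r = 0.9989), both without a named product.

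Elsewhere on the array, 28 other genes carry a pheromone or pheromone receptor product, the 4 in the run included. Into the cap 21 of them rose and 6 fell, with a median log2 change of 0.99, where 38.3% of all genes rose. Of those named as receptors, CC1G_02129 rose, while CC1G_02151 (log2 level 13.77 in young fruiting body and 11.62 in cap) and CC1G_02153 (12.42 and 10.92) fell. RCB1 (CC1G_07395), left out of the 28, was at 12.79 and 10.54. Several pheromone genes that rose had nearly equal levels: CC1G_08185, CC1G_14007, CC1G_14008, CC1G_14010, CC1G_14011, CC1G_14855 and CC1G_14884 (12.84 to 12.92 in mycelium, 11.46 to 11.55 in cap). Whether these genes share probe signal was not tested, so the counts and medians of this list may hold the same signal more than once. The 8 genes had 1 rise and 7 falls at that step, and the difference between the lists was not tested. Into initials 4 of the 28 rose and 21 fell, where 37.5% of all genes rose and 33.7% fell, with a median of -0.76 against 0.02 over all genes. One of them, the pheromone gene CC1G_14010, fell 9.8-fold into initials (log2 change -3.29 ± 0.0771, adjusted p = 8.36e-08) and rose 5.15-fold from young fruiting body to cap (2.36 ± 0.0771, adjusted p = 2.15e-07). Another pheromone gene, CC1G_01515, fell from a log2 level of 13.14 in mycelium to 8.69 in cap, a 21.8-fold fall (adjusted p = 5.16e-08). A pheromone-regulated membrane protein outside the 28, CC1G_01756, was higher in initials (at least 4.3-fold) and in cap (at least 28.0-fold) than in mycelium, where it was under the floor.

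Of the 8 genes in the A mating-type list, 3 rose and 4 fell into the cap, with a median of -0.14, near the shares of all genes (38.3% and 40.7%). The list was matched by product name, and the 3 that rose are annotated only as mating-type domain proteins. The 4 that fell are annotated as mating-type proteins beta or as homeodomain mating proteins, so these counts mix 2 kinds of product. CC1G_14510, a mating-type domain protein, fell 6.65-fold into initials (adjusted p = 1.02e-06). The list of prenylation and related enzymes, only some of which act on pheromones, had 11 falls among 11 genes into the cap. The median was -1.12, and 40.7% of all genes fell. Farnesyltransferase subunit beta (CC1G_05578) was at log2 levels of 12.69 in mycelium, 9.98 in initials, 11.75 in young fruiting body and 11.54 in cap. The farnesyltransferase alpha subunit (CC1G_07486) was at 13.37 in young fruiting body and 12.9 in cap, and the methyltransferase Ste14 (CC1G_00396) at 12.56 and 11.24. This list was matched by product name and also holds enzymes of heme and quinone synthesis and Rab prenylation. In it, the prenyltransferase CC1G_07498 rose 10.6-fold into initials (adjusted p = 1.68e-07) and fell 2.62-fold into the cap (adjusted p = 8.07e-06), and the prenyltransferase CC1G_11104 was at least 13.8-fold lower in cap than in mycelium (adjusted p = 2.71e-08).

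A list of 14 genes was matched by product name for heterotrimeric G protein subunits and regulators. It had 3 rises and 7 falls into the cap, with a median of -0.11, where 38.3% of all genes rose and 40.7% fell. The match also took in other products. These are Gtr2 (CC1G_07063, log2 level 12.99 in young fruiting body and 12.82 in cap) and small G protein signaling modulator 3 (CC1G_06254, 12.71 and 11.71). G protein pathway suppressor 1 (CC1G_07518, 13.46 and 12.19) is a further one, so these counts mix kinds of product. A G protein alpha subunit, CC1G_08586, measured 4277 and 4363 units in mycelium and 926 and 904 in initials, a log2 change of -2.24 ± 0.360 (adjusted p = 0.00113, or 0.064 with the replicate pairs averaged). Its cap arrays differed from each other, at 1177 and 479 units. Without cap replicate 1 its change from young fruiting body was -0.225 (adjusted p = 0.00961) in place of 0.42 (adjusted p = 0.315). A list of 24 genes was matched by product name for the mitogen-activated protein kinase cascade. It had 13 rises and 10 falls into the cap, with a median of 0.09, beside the same shares of all genes. The match also took in STE-class kinases of the cdc15, FRAY and YSK types and a MAP kinase-interacting protein. Which of the listed genes act downstream of the receptors was not tested. The STE7-type kinase CC1G_02205 fell 2.12-fold into initials (adjusted p = 6.97e-07). It rose 2.15-fold from young fruiting body to cap (adjusted p = 4.04e-07), to a log2 level of 13.09 beside 13.22 in mycelium. The MAP kinase CC1G_03633 fell 2.77-fold into the cap (adjusted p = 8.62e-07).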

How the data were processed

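The authors deposited linear intensity, summarised over probes by RMA (robust multi-array average) according to the names of the files. Per the file headers, an array carried 2 blocks, and in a block every one of the 8 genes had 5 probes. Build, software and RMA settings are not given in the sources used here. Standard errors deposited beside the intensity were left unused, and 0 columns of other samples were left aside.

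The log2 values of both blocks were averaged per array, with no further normalization, pseudocount or filter. In the 8 genes the blocks differed by a median of 0.0426 on the log2 scale where the level was above 2 times the floor, and the number of arrays limits the precision. The floor was 4 times the random-sequence controls (7613 probes). A stage was under it where both its arrays were, and a fold against it is "at least N-fold", with each dim array set to its floor. Differences were tested with limma 3.58.1 (lmFit, eBayes) in R 4.3.3 on all 10 arrays with stage as the only term (5 residual degrees of freedom), Benjamini-Hochberg adjusted over 13320 genes at 0.05, and the code was tested on simulated data. Tables and figures were made in Python 3.11.15 (numpy 2.4.6, pandas 2.3.3, matplotlib 3.10.9).

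Groups came from the stage label and sample titles. The members, lists and tests were chosen with earlier results of these data known. Lists were patterns on product names. The pattern for G proteins first took 442 products, most of them other binding proteins, and was corrected to 14 after the data were seen. The list of other pheromone genes was also narrowed then, from 32 to 28. Left out were a prohibitin, pheromone-regulated proteins and RCB1, although RCB1 shares its name with the Rcb receptors and was lower in cap. Of the 32, 23 rose and 8 fell into the cap. Besides the 8 genes, those named are the genes inside the run, genes among the 2 of highest r per member, and 3 stage markers. For each list, the gene with the largest called change of initials and of cap against mycelium is named. Further genes are named to show what the lists of other pheromone genes, prenylation enzymes and G proteins hold. Galectin-2 (CC1G_05005), the third marker, rose by 0.58 into initials and changed by -1.49 between mycelium and cap (log2). The RefSeq annotation of assembly CC3 gave gene order only. The alternatives were another normalization, filter, floor, offset, variance model and block of probes, the series table, and the replicate number as a block. Others were averaged pairs, a fit on only the arrays of the 2 stages compared, and each array left out. Whether probes of close paralogs share signal was not tested.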

Additional observations from a re-analysis of the deposited data

How the results depend on the processing

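For the 8 genes in 5 comparisons, 40 changes were recomputed in 21 settings, 840 values in all. Direction and call were as reported in 812, the call was lost in 18, gained in 7, and the sign turned in 3, none of them called: CC1G_15337 from initials to primordium (-0.228 to 0.047 with single arrays left out) and CC1G_02130 from mycelium to initials (0.001 on block 2 of probes, -0.044 to 0.011 with single arrays left out). With the pairs of mycelium, initials and young fruiting body averaged, 2 of the 8 genes were called from mycelium to initials in place of 7 and 1 in place of 6 from initials to primordium. Genes called overall then fell from 6397 to 1684 from initials to primordium and from 6499 to 2269 from primordium to young fruiting body. The pairs were averaged because their spread was 1.09 to 1.29 times that expected from the blocks, against 2.54 and 2.70 times for primordium and mature cap. On block 1 of probes alone Phb2.1 lost its call into initials (adjusted p = 0.0773), and Phb2.1 (0.155) and Rcb2 (0.0934) lost theirs into primordium. With the replicate number as a block, 7, 6, 8, 8 and 8 genes were called in the 5 comparisons, as without it. The labels name nothing shared behind the numbers; differences between replicates correlated at -0.024 to 0.503 between stages, above 0.1 in 8 of 10 pairs of stages and not in the other two. Other genes with a turned sign, not called except where said, were CC1G_02129 into initials (0.017 on block 2, -0.010 to 0.010 without an array), CC1G_10354 into initials (0.003 with quantile normalization, 0.002 on block 1, -0.064 to 0.062 without an array), CC1G_02134 (-0.054 on block 1, -0.039 to 0.512 without an array) and CC1G_14510 (-0.068 with quantile normalization, -0.168 on block 2, -0.004 to 0.044 without an array) into young fruiting body, CC1G_01756 (-0.032 to 0.126) and CC1G_06408 (-0.019 to 0.079) into primordium without an array, and CC1G_08586 into cap (-0.225 without cap replicate 1 and 1.072 without cap replicate 2, both called). The floor changes no call, only which folds are bounds: at 2 times the controls every level of the 8 genes is above it, and at 8 times CC1G_02130 and CC1G_15340 in cap and CC1G_15337 in all stages before it are also under it. At 8 times, the rise of CC1G_15337 from young fruiting body to cap had a log2 bound of 3.97, and the fall of Phb2.1 one of -2.53.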
